A study of Mus musculus with 6 samples.

Results

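The mitochondrial genome of the mouse was represented by 37 rows of the count table, chosen as every row whose gene symbol starts with mt-, out of 56674 rows in all. They were 13 messenger RNAs (mRNAs), the ribosomal RNAs (rRNAs) mt-Rnr1 and mt-Rnr2, and 22 transfer RNAs (tRNAs). Their values were read in liver of male C57BL/6 mice, a common inbred strain, reared for 71 weeks. PB-MP stands for mice given chow containing polypropylene black microplastic (3 libraries), and control stands for mice given normal chow (3 libraries). The groups follow the sample titles and the treatment characteristic, which match each other, whereas the treatment protocol field names chow with PB-MP for the control libraries as well. The labels name no genetic alteration, give the same strain, sex and week for both diets, and do not say whether the 3 libraries of a diet came from separate animals. The p-values therefore measure only the spread between these libraries, which may be technical. Per the labels' protocols, RNA was selected on poly(A) beads and sequenced from directional libraries, so the values count the mitochondrial RNA that passed this selection.

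The mitochondrial genome is a small circle of DNA that encodes core subunits of respiratory complexes I, III, IV and V, and the rRNAs and tRNAs needed to translate them inside the organelle. Each strand is transcribed into a long precursor, in which tRNAs lie between most mRNAs and rRNAs and are cut out, and mitochondrial mRNAs in mammals then mostly receive poly(A) tails. Hepatocytes are rich in mitochondria, and these mRNAs are usually among the most abundant poly(A) RNAs of liver.

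Library totals ran from 70603124 to 90483598 counted reads in PB-MP and from 68357478 to 112566641 in control. Of the whole table, 17871 rows passed the filter on low counts and entered the edgeR quasi-likelihood test, in which TMM (trimmed mean of M-values) sets the scale of each library. No row passed an adjusted p below 0.05 with edgeR (0 called, 2161 at an unadjusted p below 0.05) or with limma-voom (0 called, 2445 unadjusted), whereas DESeq2 called 151 rows lower and 361 higher. Liver identity was plain, with all 9 hepatocyte markers tested and a summed level of 76232 to 82622 RPM (reads scaled to the total of the library) in PB-MP, against 57402 to 70591 RPM in control. PB-MP library 3 and control library 2 stood apart from their groups in several mitochondrial rows, and results that move with them are also given without them. The 3 values given for a group are those of libraries 1, 2 and 3 in this order.

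The 13 mRNAs took a smaller share of the counted reads in PB-MP livers than in control livers. Their summed share was 10.1, 9.43 and 8.73% in PB-MP, against 14.2, 14.5 and 15.1% in control, and the groups did not overlap. By respiratory complex, complex I mRNAs, whose products form the entry point for electrons from NADH, took 3.63, 3.40 and 2.16% in PB-MP and 4.70, 5.15 and 5.20% in control. The complex IV mRNAs, for the core of cytochrome c oxidase, took 3.78, 3.62 and 4.49% in PB-MP and 6.46, 5.53 and 6.37% in control. In both of these complexes every PB-MP library lay below every control library. The share of complex III, encoded here by mt-Cytb alone, was 1.43, 1.27 and 1.12% in PB-MP, against 1.56, 2.07 and 1.74% in control. The complex V mRNAs, for membrane subunits of ATP synthase, took 1.30, 1.15 and 0.959% in PB-MP and 1.48, 1.78 and 1.78% in control. These shares did not overlap between the diets either. In bulk tissue, fewer cells with such RNA and less of it per cell cannot be told apart.

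The 22 tRNAs also took less in PB-MP, and the rRNAs did not separate the diets. The summed tRNA share was 0.0874, 0.118 and 0.0901% in PB-MP, against 0.145, 0.206 and 0.274% in control, without overlap. The summed share of mt-Rnr1 and mt-Rnr2 was 1.03, 1.10 and 0.417% in PB-MP and 0.495, 1.70 and 0.658% in control, and the values of the diets were interleaved. Rn18s-rs5, a row for nuclear 18S rRNA, took 3.61, 9.42 and 0.707% in PB-MP and 2.92, 11.2 and 1.15% in control. In PB-MP both rRNA shares were highest in library 2 and lowest in library 3, and in control both were highest in library 2. The lowest control library differed, being library 1 for the mitochondrial rRNAs and library 3 for Rn18s-rs5. The part of rRNA carried through poly(A) selection in the mitochondrial values was not tested.

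**Figure D1:**
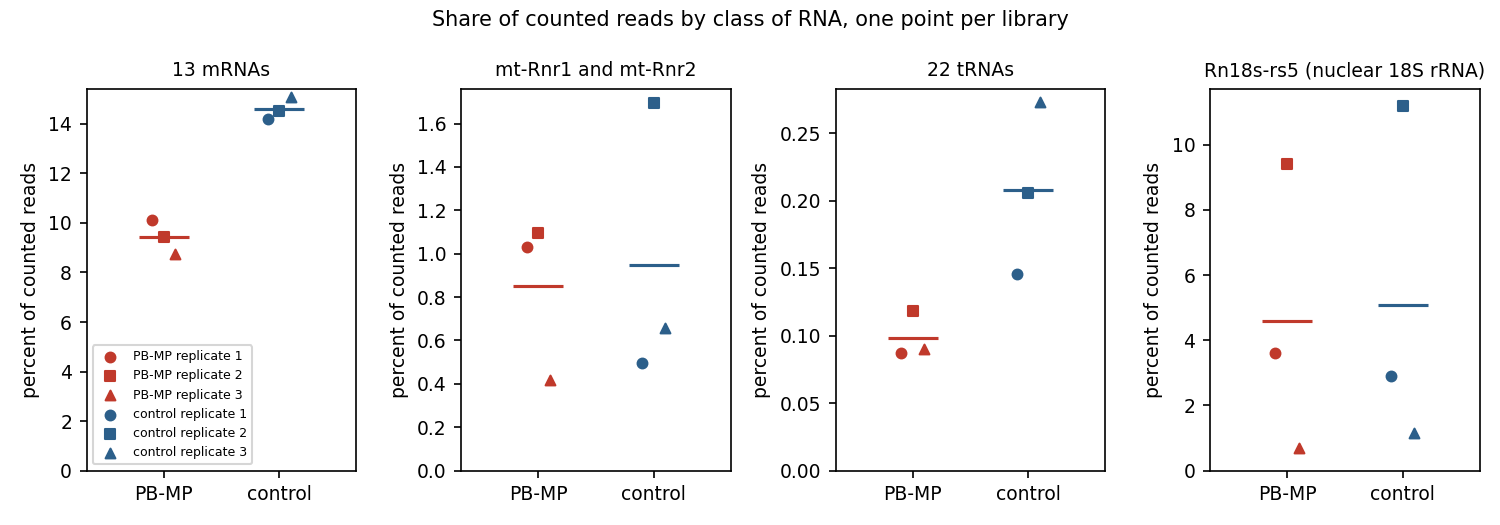
Percent of all counted reads per library for the 13 mRNAs, the rRNAs mt-Rnr1 and mt-Rnr2, the 22 tRNAs and the nuclear 18S rRNA row Rn18s-rs5, with 1 symbol per library and a line at the mean of each diet. The mRNA and tRNA shares of the 3 PB-MP libraries lie below those of the 3 control libraries, and both rRNA panels overlap.

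In the fit, 32 of the 37 rows passed the filter, and the 5 that did not were tRNAs that sat at 1 or 2 reads in every library. All 32 tested rows had a log2 fold change (PB-MP over control) below 0, a direction shared by 49.4% of all tested rows. Their median log2 fold change was -0.99, against 0.0067 over all tested rows. None was called by edgeR (0.00% of all tested rows were called lower), the smallest adjusted p being 0.207, shared by mt-Nd1, mt-Tk and mt-Tt. At an unadjusted p below 0.05, 22 of the 32 were lower, against 4.74% of all tested rows. In 25 of the 32 the groups did not overlap and PB-MP was lower, against 8.49% of all tested rows. Scaled by library total alone, 22 did not overlap, since mt-Nd5, mt-Nd6 and mt-Te then overlapped. On that scale the median log2 fold change of all tested rows was 0.23, and their share without overlap was not computed. DESeq2 called 13 of the 32 lower, against 0.719% of all rows it tested. They were the mRNAs mt-Atp6, mt-Co1, mt-Co2, mt-Nd1 and mt-Nd4l and the tRNAs mt-Tt, mt-Tk, mt-Ta, mt-Tn, mt-Tc, mt-Ty, mt-Th and mt-Ts2. These rows are transcripts of 1 genome and are not independent of each other.

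Of complex I, 7 subunits are encoded here, and 5 of their mRNAs were lower in every PB-MP library than in any control library. Of all tested rows, 8.49% were so. Of the 7, 3 had an unadjusted p below 0.05 and were lower, against 4.74% of all tested rows, and their median log2 fold change was -1.07. Values per library are CPM, the counts of a row relative to the TMM-scaled library total. mt-Nd1, a membrane-arm subunit next to the quinone site, had 6224, 6503 and 5451 CPM in PB-MP, against 13500.2, 10679 and 14515 CPM in control. The 3 PB-MP values lay close together and well below all control values, with a log2 fold change of -1.09 ± 0.23 (SE, n = 3 each, edgeR adjusted p = 0.207). mt-Nd4l, a small membrane subunit, had 8084, 8088 and 3899 CPM in PB-MP and 13892, 14435 and 13837 CPM in control. PB-MP library 3 was the lowest and the groups did not overlap, at a log2 fold change of -1.07 ± 0.32 (SE, edgeR adjusted p = 0.298). mt-Nd2, an antiporter-like subunit of the membrane arm, had 8304, 8559 and 5882 CPM in PB-MP and 10939, 16391 and 13077 CPM in control. Its groups were apart by less than the range within either of them, and its log2 fold change was -0.83 ± 0.27 (SE, edgeR adjusted p = 0.325).

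mt-Nd4, another antiporter-like subunit, had 473, 441 and 0.226 CPM in PB-MP and 391, 1115 and 577 CPM in control. Its row was nearly empty in PB-MP library 3, with 22 reads, against 37343 and 37282 reads in PB-MP libraries 1 and 2. The groups overlapped, and the log2 fold change of -1.19 ± 1.61 (SE, edgeR adjusted p = 0.803) rests on that library, without which it was -0.61 (without control library 2 it was -0.71). Over the alternatives it ran from -4.14, with limma-voom, to -0.098. mt-Nd6, the only mRNA of the light strand and in human cells known to lack a poly(A) tail, had 103, 103 and 27.5 CPM in PB-MP and 180.0, 216 and 109 CPM in control. PB-MP library 3 was again the lowest, the groups did not overlap, and the log2 fold change was -1.11 ± 0.50 (SE, edgeR adjusted p = 0.433), or -0.71 without that library. Of the remaining subunit mRNAs, mt-Nd5 ran from 4054 to 8798 CPM in PB-MP and from 9629 to 14338 CPM in control, without overlap, and its log2 fold change of -0.78 became -0.50 without PB-MP library 3. mt-Nd3 ran from 423 to 779 CPM in PB-MP and from 462 to 907 CPM in control, with overlap, and its log2 fold change of -0.36 became -0.68 without PB-MP library 3, -0.17 without control library 2 and -0.19 without PB-MP library 2.

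mt-Cytb, which encodes the cytochrome b of complex III, had 12836, 12144 and 10385 CPM in PB-MP and 16296, 23355 and 18636 CPM in control. All PB-MP values lay below the control values, at a log2 fold change of -0.72 ± 0.24 (SE, n = 3 each, edgeR adjusted p = 0.336).

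Of complex IV, 2 of 3 mRNAs separated the diets, as 8.49% of all tested rows did in this direction. mt-Co1, the catalytic subunit with the heme and copper centre and the row with most reads of all 37, had 26084, 27184 and 30080.1 CPM in PB-MP, against 52639, 48501 and 53343 CPM in control. The distance between the diets was larger than the range within either, and the log2 fold change was -0.89 ± 0.24 (SE, edgeR adjusted p = 0.251). mt-Co2, which takes electrons from cytochrome c, had 4746, 4566 and 5452 CPM in PB-MP and 9187, 9081 and 8298 CPM in control. It was likewise clearly apart, at a log2 fold change of -0.85 ± 0.20 (SE, edgeR adjusted p = 0.234). mt-Co3, the third core subunit, had 3009.7, 2961 and 6115 CPM in PB-MP and 5438, 4776 and 6602 CPM in control. PB-MP library 3 was over 2 times as high as the other PB-MP libraries and overlapped the control range, so that the log2 fold change of -0.48 ± 0.34 (SE, edgeR adjusted p = 0.607) became -0.91 without it.

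Both complex V mRNAs were lower in every PB-MP library than in any control library, as were 8.49% of all tested rows. mt-Atp8, a short subunit of the membrane part of ATP synthase, had 6841, 6497 and 6008 CPM in PB-MP and 8362, 11625 and 10818 CPM in control, at a log2 fold change of -0.67 ± 0.22 (SE, n = 3 each, edgeR adjusted p = 0.328). mt-Atp6, the subunit that forms the proton path, had 4775, 4507 and 2892 CPM in PB-MP and 7067, 8448 and 8217 CPM in control, at a log2 fold change of -0.96 ± 0.26 (SE, edgeR adjusted p = 0.251). For mt-Atp8 the PB-MP values were closer together than the control values, and for mt-Atp6 PB-MP library 3 was the lowest of all 6.

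**Figure D2:**
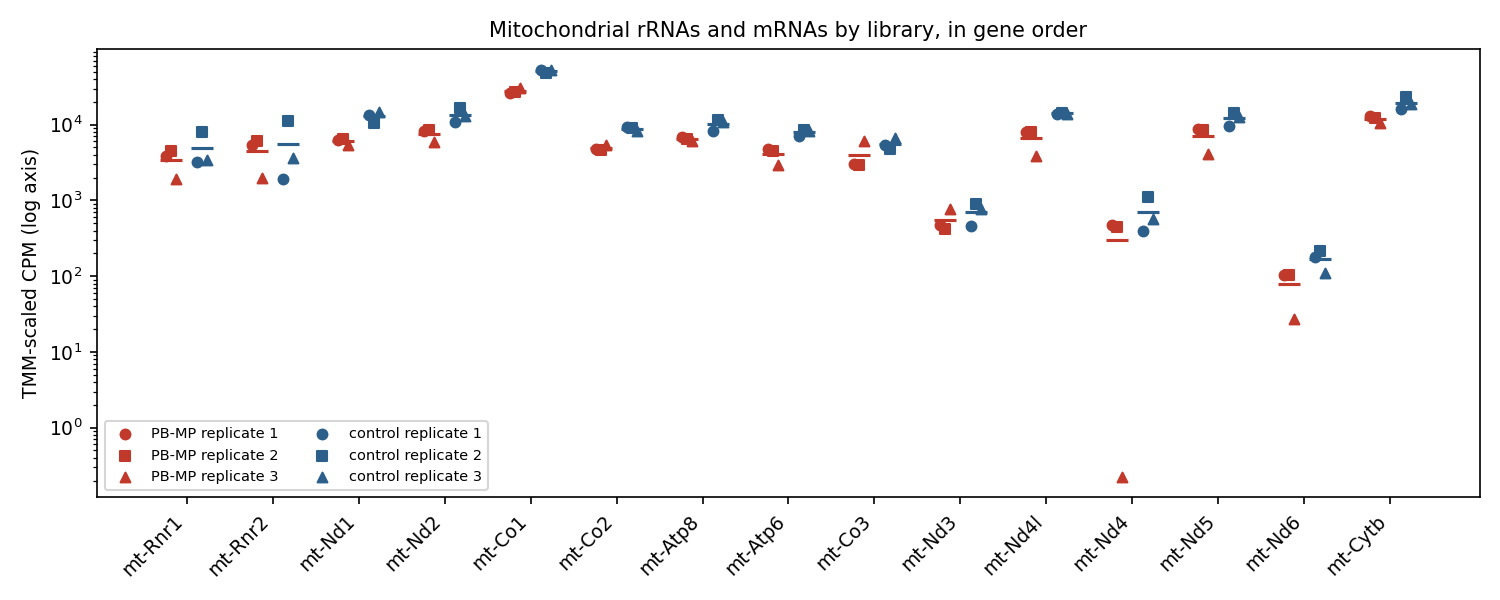
TMM-scaled CPM on a log axis for mt-Rnr1, mt-Rnr2 and the 13 mRNAs in gene order, with 1 symbol per library and a line at the mean of each diet. mt-Nd1, mt-Co1 and mt-Co2 show separate groups, mt-Co3 overlaps through PB-MP library 3, mt-Nd3 also overlaps, and mt-Nd4 shows 1 PB-MP library at 0.226 CPM.

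Reads of neighbouring genes cannot always be assigned to 1 row, because mt-Atp8 with mt-Atp6, and mt-Nd4l with mt-Nd4, are each read from a shared mRNA in overlapping frames. The ends that overlap are shown for both pairs, 5′ to 3′, from GENCODE M21 transcripts, with the shared bases in capitals (43 for the first pair and 7 for the second). They are the last 60 bases of the upstream gene and the first 60 of the downstream gene.
mt-Atp8: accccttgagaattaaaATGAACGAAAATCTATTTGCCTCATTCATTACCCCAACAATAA
mt-Atp6: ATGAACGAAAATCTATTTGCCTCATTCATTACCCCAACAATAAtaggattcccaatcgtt
mt-Nd4l: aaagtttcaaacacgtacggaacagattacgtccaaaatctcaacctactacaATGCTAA
mt-Nd4: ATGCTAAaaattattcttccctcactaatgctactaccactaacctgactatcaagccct
The ratio of mt-Atp8 to mt-Atp6 reads was 1.43, 1.44 and 2.08 in PB-MP and 1.18, 1.38 and 1.32 in control. Every PB-MP ratio was the higher, which reached the smallest p that 3 against 3 libraries allow (two-sided exact permutation test, p = 0.1, adjusted over 4 ratios p = 0.4). The log2 difference of this ratio was 0.33, 0.16 without PB-MP library 3 and 0.19 with the reads of nuclear copies added. mt-Atp8 has 204 bases and mt-Atp6 681. The ratio of mt-Nd4l to mt-Nd4 reads was 17.1, 18.4 and 17279 in PB-MP and 35.5, 12.9 and 23.97 in control, although mt-Nd4l has 297 bases and mt-Nd4 1378. Its groups overlapped (two-sided exact permutation test, p = 0.8, adjusted p = 0.8). The log2 difference of 2.98 rests on PB-MP library 3, without which it was -0.33, and with the nuclear copies added it was 0.14.

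The nuclear genome carries copies of mitochondrial genes, and 15 rows of the table were such copies by sequence (at least 90% identity over at least 200 bases). The copies also took less in PB-MP, namely 2.97, 2.69 and 3.10% of all counted reads in PB-MP, against 4.41, 4.20 and 4.59% in control, without overlap. Of the 15, 7 lie on chromosome 1, and 5 of these 7 match their mitochondrial gene without a mismatch over the aligned length. The first 90 bases of mt-Co2 and of its copy Gm28661 are shown, identical like the whole 681 aligned bases. With them are short windows around the only mismatch of the other 2 copies within the aligned length, all 5′ to 3′ in the same source. Positions count from 1 at the first base of the mitochondrial gene, capitals mark the differing base, and the tokens give the mitochondrial base first (T3C for mt-Nd3 and Gm28438, A1066T for mt-Co1 and Gm29216).
mt-Co2: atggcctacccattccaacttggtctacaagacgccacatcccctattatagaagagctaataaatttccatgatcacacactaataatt
Gm28661: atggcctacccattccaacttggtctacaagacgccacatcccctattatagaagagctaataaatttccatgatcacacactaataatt
mt-Nd3: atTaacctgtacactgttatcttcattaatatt
Gm28438: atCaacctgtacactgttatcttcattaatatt
mt-Co1: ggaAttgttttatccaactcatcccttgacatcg
Gm29216: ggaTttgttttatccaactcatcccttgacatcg
The copies with most reads were Gm10925, Gm28437 and Gm29216. Gm10925, identical to mt-Atp6 over 678 bases, had 7630.2, 7192 and 6321 CPM in PB-MP and 10169, 13195 and 12724 CPM in control (log2 fold change -0.77 ± 0.22, SE, edgeR adjusted p = 0.279). Gm28437, identical to mt-Co3 over 783 bases, had 5533, 5321 and 7657 CPM in PB-MP and 9322, 9061 and 11024 CPM in control (-0.67 ± 0.24, SE, adjusted p = 0.348). Gm29216, which matches mt-Co1 over 483 bases, had 3817, 3964 and 7050.4 CPM in PB-MP and 8827, 7514 and 9261 CPM in control (-0.79 ± 0.30, SE, adjusted p = 0.369). All 3 rows had lower values in every PB-MP library, although Gm28437 and Gm29216 overlapped when scaled by library total alone. For these 2 PB-MP library 3 came nearest to control, and without it their log2 fold changes were -0.86 and -1.14.

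Reads were divided between gene and copy in nearly the same way under both diets for some pairs. The following copies, Gm28661, Gm28438 and Gm28439, were named after their values were seen. Gm28661 held 99.4, 99.2 and 98.99% of the mt-Co2 reads in PB-MP and 99.7, 99.4 and 99.5% in control, and Gm28438 held 105, 104 and 98.8% of the mt-Nd3 reads in PB-MP and 104, 104 and 104% in control. In both pairs copy and gene were thus counted almost equally in all 6 libraries. Gm10925 held 159.8, 159.6 and 219% of the mt-Atp6 reads in PB-MP and 144, 156 and 155% in control, without overlap and with the highest value in PB-MP library 3. Gm28437 held 184, 180 and 125% of the mt-Co3 reads in PB-MP and 171, 190 and 167% in control. Gm29216 held 14.6, 14.6 and 23.4% of the mt-Co1 reads in PB-MP and 16.8, 15.5 and 17.4% in control. Both pairs overlapped between the diets, with PB-MP library 3 lowest for Gm28437 and highest for Gm29216. Gm28439, identical to 876 bases of mt-Nd4, had 315014, 335708 and 132513 reads in PB-MP and 493083, 419348 and 644828 reads in control, so that in PB-MP library 3, where mt-Nd4 had 22 reads, its copy had 132513. This copy held 602332% of the mt-Nd4 reads in PB-MP library 3, and from 620 to 1731% in the other libraries. Gm10222, identical to mt-Nd4l over 294 bases and also named after its values were seen, sat at 1 read in 5 libraries and at 77 in PB-MP library 3. Of the 15 copies, 14 were tested, all 14 with a log2 fold change below 0 and a median of -1.16. None was called by edgeR, 13 did not overlap between the diets (8.49% of all tested rows did so in this direction), and DESeq2 called 6 lower (against 0.719% of all rows it tested). Scaled by library total alone, 11 did not overlap, a scale on which the share over all tested rows was not computed. Which copy or gene a read came from was not tested, since the treatment of reads with several matches is not given in the sources used here.

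**Figure D3:**
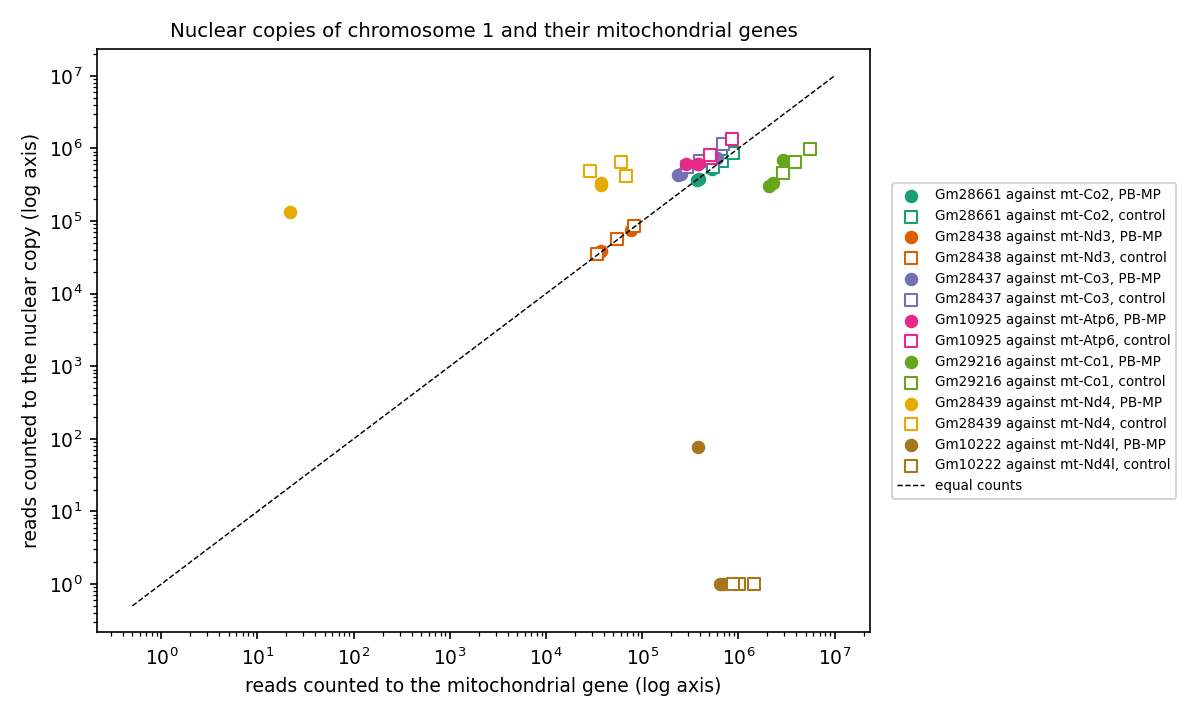
Reads counted to 7 nuclear copies on chromosome 1 (vertical log axis) against reads counted to the mitochondrial gene they match (horizontal log axis), with 1 symbol per library, filled for PB-MP and open for control. Gm28661 and Gm28438 lie on the line of equal counts, and Gm28439 lies above it with 1 PB-MP library far to the left. Gm10222 lies at 1 read except in PB-MP library 3, where it has 77.

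With the reads of each copy added to its gene and the overlapping pairs merged, the 13 mRNAs formed 11 units. All 11 had a log2 fold change below 0 and none was called by edgeR. On the TMM scale 10 did not overlap between the diets, against 8.49% of all tested rows, and 7 had an unadjusted p below 0.05, against 4.74%. Scaled by library total alone 7 did not overlap, since mt-Co3, mt-Nd5 and mt-Nd6 then overlapped as well as mt-Nd3. For that scale the share over all tested rows was not computed. On the TMM scale mt-Co3 with its copy was narrowly apart, with 8542, 8279 and 13769 CPM in PB-MP and 14764, 13841 and 17628 CPM in control (log2 fold change -0.60 ± 0.28, SE, edgeR adjusted p = 0.453), or -0.88 without PB-MP library 3. mt-Nd3 with its copy was the exception, with 965, 861 and 1547 CPM in PB-MP and 946, 1847 and 1571 CPM in control (-0.37 ± 0.33, SE, adjusted p = 0.688), or -0.67 without PB-MP library 3 and -0.19 without control library 2. The unit of mt-Nd4l and mt-Nd4 had 12552, 12491 and 5258 CPM in PB-MP and 21054, 22476 and 20549 CPM in control, with PB-MP library 3 the lowest (-1.08 ± 0.37, SE, adjusted p = 0.337). The summed share of mRNAs and copies was 13.1, 12.1 and 11.8% in PB-MP, against 18.6, 18.7 and 19.7% in control.

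On the RPKM scale, reads relative to transcript length and library total, which allows levels of different genes to be compared, these units kept a wide spread. The level of mt-Co1 averaged 22969 ± 2623 in PB-MP and 36436 ± 3535 in control (SD, n = 3 each). That of the mt-Atp8 and mt-Atp6 unit averaged 22512 ± 3030 in PB-MP and 33152 ± 3430.3 in control, and these top levels lay within each other's SD under both diets. This held only with the copies added, since without them mt-Co1 averaged 19392 in PB-MP and 30933 in control, and the mt-Atp8 and mt-Atp6 unit 13473 in PB-MP and 19949.5 in control. The level of mt-Cytb averaged 11126 ± 1378 in PB-MP and 15665 ± 2244 in control (SD). By these means it stood below the complex IV units and above the complex I units, although its values overlapped those of mt-Co3 in both diets. Without the copies this order turned, with mt-Cytb at 11126 in PB-MP and 15665 in control. mt-Co2 then averaged 7766 in PB-MP and 11999.6 in control, and mt-Co3 5543 in PB-MP and 6643 in control. The levels of the complex I units on the heavy strand had means from 3490.3 (mt-Nd3) to 7913 (mt-Nd2) in PB-MP and from 3843 (mt-Nd3) to 12536 (mt-Nd1) in control. mt-Nd6 of the light strand had the lowest level, 162 ± 90.9 in PB-MP and 300.3 ± 90.8 in control.

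Within the mRNAs, few parts separated the diets. As a percent of the reads of the 13 mRNAs, 12 overlapped between PB-MP and control. mt-Atp8 took 7.54, 7.18 and 7.41% in PB-MP and 5.65, 7.09 and 6.70% in control, the one mRNA whose groups did not overlap (two-sided exact permutation test, p = 0.1, the smallest possible, adjusted over 13 mRNAs p = 0.975). With the copies added, the groups of all 13 overlapped. mt-Co1 took 28.7, 30.03 and 37.1% in PB-MP and 35.6, 29.6 and 33.02% in control, the largest part in every library. mt-Nd1 took 6.86, 7.18 and 6.73% in PB-MP and 9.12, 6.52 and 8.99% in control, with control library 2 below all PB-MP libraries. Single libraries stood out in some of these parts. On the scale of shares of all reads, the value of PB-MP library 3 over the mean of PB-MP libraries 1 and 2 was 2.04 for mt-Co3 and 1.74 for mt-Nd3. The same ratio was 0.481 for mt-Nd4l, 0.466 for mt-Nd5 and 0.267 for mt-Nd6. Without control library 2 and PB-MP library 3 together, 8 mRNAs had shares that did not overlap, over 2 libraries per diet. These are the libraries that stood apart, so leaving them out narrows the spread within each diet by itself. Separation is also reached more easily with 2 against 2 libraries. No difference between the diets is therefore read from this count.

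The rRNAs of the mitochondrial ribosome gave no diet difference that stood above the spread. mt-Rnr1, the rRNA of the small subunit, had 3852, 4492 and 1912 CPM in PB-MP and 3212, 8005 and 3386 CPM in control. mt-Rnr2, the rRNA of the large subunit, had 5393, 6031 and 1961 CPM in PB-MP and 1941, 11117 and 3658 CPM in control. In both rows control library 2 was the highest of all 6, PB-MP library 3 was the lowest of PB-MP, and the groups overlapped. The log2 fold change was -0.51 ± 0.46 for mt-Rnr1 and -0.32 ± 0.68 for mt-Rnr2 (SE, n = 3 each, edgeR adjusted p = 0.696 and 0.881). Without control library 2 these became 0.02 for mt-Rnr1 and 0.64 for mt-Rnr2, and without PB-MP library 3 -0.22 and 0.034. The ratio of mt-Rnr2 to mt-Rnr1 reads was 1.40, 1.34 and 1.03 in PB-MP and 0.604, 1.39 and 1.08 in control, with overlap (two-sided exact permutation test, p = 0.6, adjusted p = 0.8). Its log2 difference was 0.36, and 0.62 without control library 2. The ratio of mt-Nd6 to mt-Cytb, the light-strand mRNA against a heavy-strand neighbour, was 0.00799, 0.00850 and 0.00265 in PB-MP and 0.0110, 0.00925 and 0.00586 in control. It overlapped as well (two-sided exact permutation test, p = 0.4, adjusted p = 0.8), and its log2 difference of -0.58 became -0.032 without PB-MP library 3.

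Of the 22 tRNAs, 17 were tested. All 17 had a log2 fold change below 0 with a median of -1.37, 15 did not overlap between the diets (8.49% of all tested rows did so in this direction), 14 had an unadjusted p below 0.05 (4.74% of all tested rows) and none was called by edgeR. The genes with the smallest p or the most reads are shown 5′ to 3′ in the sense of the tRNA, from GENCODE M21 transcripts, with the anticodon in capitals. mt-Ty is added because it closes the run of neighbours described with mt-Ta, mt-Tn and mt-Tc.
mt-Tt: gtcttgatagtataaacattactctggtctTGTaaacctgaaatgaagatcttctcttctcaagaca
mt-Tk: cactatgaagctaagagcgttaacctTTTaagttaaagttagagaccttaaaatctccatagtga
mt-Ta: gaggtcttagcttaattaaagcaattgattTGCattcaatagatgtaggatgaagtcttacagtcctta
mt-Tn: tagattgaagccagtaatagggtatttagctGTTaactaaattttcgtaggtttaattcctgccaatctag
mt-Tc: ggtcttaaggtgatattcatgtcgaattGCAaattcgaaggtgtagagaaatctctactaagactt
mt-Ty: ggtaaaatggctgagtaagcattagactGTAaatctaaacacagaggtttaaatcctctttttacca
mt-Te: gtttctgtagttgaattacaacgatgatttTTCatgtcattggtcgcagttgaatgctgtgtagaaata
mt-Tp: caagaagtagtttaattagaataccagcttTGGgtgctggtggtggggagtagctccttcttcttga
A mature tRNA normally carries no poly(A) tail, so reads in these rows may come from mature tRNA, from precursors or from neighbouring transcripts, and which of these was not tested.

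On the heavy strand, mt-Tt, the tRNA for threonine, had 1.15, 1.41 and 1.16 CPM in PB-MP, against 3.72, 3.56 and 6.10 CPM in control. The PB-MP values were close together and all far below the lowest control value, with a log2 fold change of -1.85 ± 0.30 (SE, n = 3 each, edgeR adjusted p = 0.207, DESeq2 adjusted p = 4.94e-05). Its reads numbered 91 to 119 per PB-MP library and 216 to 641 per control library. mt-Tk, the tRNA for lysine, had 0.875, 0.863 and 0.513 CPM in PB-MP and 2.41, 1.72 and 2.62 CPM in control. All its PB-MP values were below 1 CPM and all control values above it, at a log2 fold change of -1.59 ± 0.32 (SE, edgeR adjusted p = 0.207, DESeq2 adjusted p = 0.00384). The 11 tested heavy-strand tRNAs had log2 fold changes from -1.85 (mt-Tt) to -0.68 (mt-Tm, the tRNA for methionine), with a median of -1.36. Of these, 9 did not overlap, against 8.49% of all tested rows in this direction. The exceptions were mt-Tf and mt-Tr, the tRNAs for phenylalanine and arginine. mt-Tf had only 3 to 15 reads per PB-MP library and 9 to 21 per control library.

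On the light strand, all 6 tested tRNAs had lower values in every PB-MP library, against 8.49% of all tested rows. Their median log2 fold change was -2.03. The largest differences on this strand stood in 4 neighbours, mt-Ta, mt-Tn, mt-Tc and mt-Ty, which flank the origin of light-strand replication. mt-Ta, the tRNA for alanine, had 29.8, 54.95 and 33.6 CPM in PB-MP and 68.6, 199 and 306 CPM in control (log2 fold change -2.28 ± 0.53, SE, n = 3 each, edgeR adjusted p = 0.234). mt-Tn, the tRNA for asparagine, had 49.4, 99.5 and 57.2 CPM in PB-MP and 118, 366 and 541 CPM in control (-2.31 ± 0.56, SE, adjusted p = 0.241). mt-Tc, the tRNA for cysteine, had 42.3, 85.3 and 51.98 CPM in PB-MP and 107, 318 and 466 CPM in control (-2.31 ± 0.54, SE, adjusted p = 0.234). In all 3 genes control library 1 lay close to the highest PB-MP value, and control libraries 2 and 3 lay far above it. Without control library 1 the log2 fold changes of mt-Ta, mt-Tn and mt-Tc were -2.69, -2.73 and -2.72. Without control library 3 they were -1.76, -1.81 and -1.82. mt-Ty, the tRNA for tyrosine, ran from 22.8 to 39.2 CPM in PB-MP and from 50.5 to 156 CPM in control, at a log2 fold change of -1.78 ± 0.42 (SE, adjusted p = 0.237).

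The reads of these 4 neighbours made up 18.5, 24.6 and 21.1% of all tRNA reads in PB-MP and 22.7, 43.3 and 50.2% in control, and control library 1 overlapped PB-MP. Without them, the remaining 13 tested tRNAs had a median log2 fold change of -1.19. Of these 13, 11 did not overlap, against 8.49% of all tested rows in this direction. mt-Tp, the tRNA for proline and the tRNA with most reads, had 366, 560.2 and 512 CPM in PB-MP and 811, 791 and 972 CPM in control. Its groups were apart, at a log2 fold change of -0.84 ± 0.21 (SE, n = 3 each, edgeR adjusted p = 0.244). mt-Te, the tRNA for glutamate, had 176, 183 and 103 CPM in PB-MP and 201, 351 and 309 CPM in control. Its groups were just apart, at a log2 fold change of -0.90 ± 0.30 (SE, edgeR adjusted p = 0.327).

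The tRNA rows differed by strand in their level per length. In RPKM averaged over all 6 libraries, the 11 tested heavy-strand tRNAs ran from 2.17 (mt-Tf) to 904 (mt-Tl1, for leucine). The 6 tested light-strand tRNAs ran from 1011 (mt-Ty) to 9783 (mt-Tp), so that these ranges did not meet. In PB-MP alone they met, since mt-Ta averaged 612, mt-Ty 512 and mt-Tl1 709 on this scale. Light-strand genes held 87.8, 89.96 and 94.6% of the tRNA reads in PB-MP and 89.5, 92.6 and 93.9% in control, with overlap. Among the mRNA rows mt-Nd6 of the light strand had the lowest mean over all 6 libraries, although mt-Nd4 lay below it in PB-MP library 3 and in control library 1. Most light-strand tRNAs lie opposite the long heavy-strand transcript. The strand setting of the counting is not given in the sources used here, so reads from the 2 strands cannot be told apart in these rows.

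**Figure D4:**
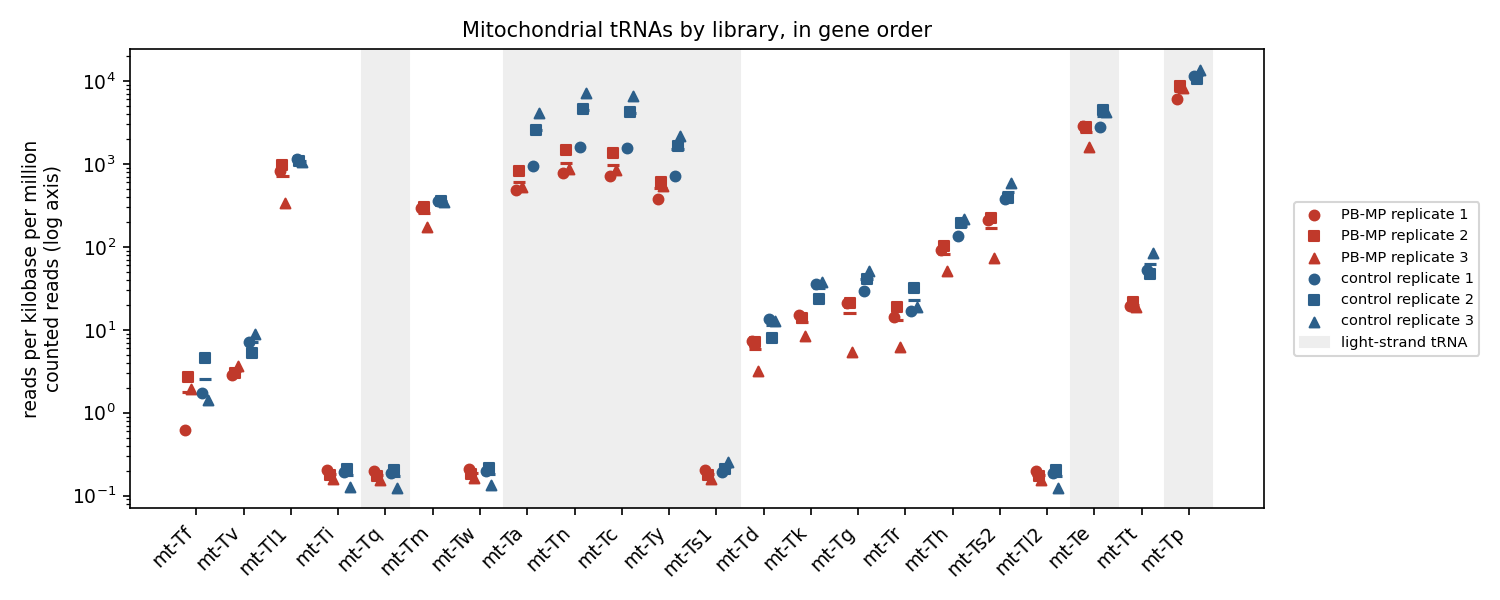
RPKM (reads relative to transcript length and library total) on a log axis for the 22 tRNAs in gene order, with 1 symbol per library, a line at the mean of each diet, and grey bands for light-strand genes. By their means over all libraries the tested light-strand tRNAs stand above the heavy-strand ones though in PB-MP mt-Tl1 lies above mt-Ta and mt-Ty. The run from mt-Ta to mt-Tc shows the widest distance between the means of PB-MP and control, although its nearest single libraries lie close together. At the bottom lie 5 tRNAs with 1 or 2 reads.

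Of the tRNAs, 5 could not be described. mt-Ti, mt-Tq, mt-Tw and mt-Tl2, the tRNAs for isoleucine, glutamine, tryptophan and one of those for leucine, held the value 1 in all 6 libraries. mt-Ts1, one of those for serine, held 1 in 5 libraries and 2 in control library 3. All 5 overlap neighbouring genes by 1 to 3 bases each in the annotation, as mt-Tw does with mt-Nd2, whereas of the other 17 tRNAs only mt-Ts2 does. The value 1 in all 6 libraries was found in 210 rows of the whole table (0.371%), so it may not stand for a counted read.

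Along the genome, the fitted differences formed no single slope. The genes at the start of the heavy-strand transcript, mt-Tf, mt-Rnr1 and mt-Rnr2, had log2 fold changes of -0.72, -0.51 and -0.32, and mt-Tv, the tRNA for valine between these rRNAs, had -1.36. The value of mt-Tf became -0.025 without control library 2 and -0.33 without PB-MP library 1. The mRNAs from mt-Nd1 to mt-Cytb lay between -1.19 (mt-Nd4) and -0.36 (mt-Nd3). Tested tRNAs did not all lie below the mRNAs beside them. mt-Tl1 had -0.85 beside mt-Nd1 with -1.09, and mt-Tm had -0.68 beside mt-Nd2 with -0.83. mt-Te had -0.90, between mt-Nd6 with -1.11 and mt-Cytb with -0.72. Of those that lay lower, 3 are given, chosen after their values were seen. mt-Tk had -1.59 beside mt-Co2 with -0.85 and mt-Atp8 with -0.67. mt-Tg, the tRNA for glycine, had -1.58 beside mt-Co3 with -0.48 and mt-Nd3 with -0.36. Without PB-MP library 3 these were -1.17 for mt-Tg, -0.91 for mt-Co3 and -0.68 for mt-Nd3. mt-Tt had -1.85 beside mt-Cytb with -0.72, all on the log2 scale. The difference between a tRNA and its neighbour was not tested.

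**Figure D5:**
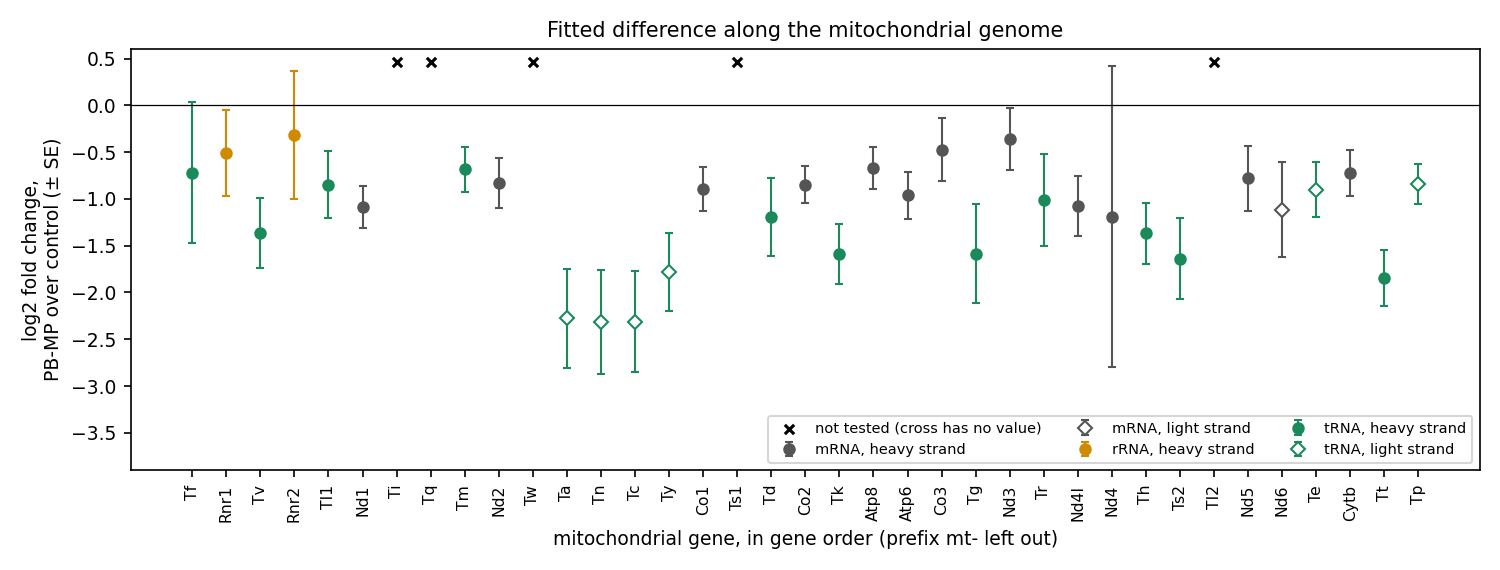
Log2 fold change (PB-MP over control) with its SE from edgeR, in gene order along the mitochondrial genome, coloured by class of RNA, filled for heavy-strand and open for light-strand genes, with crosses at the top edge for the 5 tRNAs not tested. All 32 tested genes lie below 0, mt-Tn, mt-Tc and mt-Ta lie lowest, mt-Rnr2 and mt-Nd3 lie nearest to 0, and mt-Nd4 has the widest error.

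The nuclear genes that make and process mitochondrial RNA did not share this direction. Of a list of 44 such genes, all 44 were tested, 0 were called by edgeR in either direction, 25 had a log2 fold change above 0 and 19 below it, and the median was 0.037. At an unadjusted p below 0.05, 2 were higher (7.35% of all tested rows) and 0 lower, 3 did not overlap and were higher (11.4% of all tested rows), and 4 did not overlap and were lower (8.49% of all tested rows). Tfam, the factor that packs mitochondrial DNA and starts transcription, had 42.6, 42.3 and 41.3 CPM in PB-MP and 37.5, 46.1 and 45.1 CPM in control. Its values overlapped, with a log2 fold change of -0.028 ± 0.15 (SE, n = 3 each, edgeR adjusted p = 0.955) and a 95% interval from -0.37 to 0.32. Polrmt, the mitochondrial RNA polymerase, had 19.9, 20.2 and 20.4 CPM in PB-MP and 21.3, 16.4 and 17.8 CPM in control, also with overlap (0.12 ± 0.17, SE, adjusted p = 0.805). Lrpprc, which binds and stabilises mitochondrial mRNAs, had 70.3, 72.7 and 55.04 CPM in PB-MP and 79.05, 80.8 and 90.1 CPM in control. All its PB-MP values were lower, at a log2 fold change of -0.34 ± 0.16 (SE, adjusted p = 0.453).

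Nsun4, which methylates the small-subunit rRNA and helps assemble the mitochondrial ribosome, had 12.5, 12.7 and 11.03 CPM in PB-MP and 16.5, 14.3 and 16.6 CPM in control. It did not overlap and was lower in PB-MP, at a log2 fold change of -0.39 ± 0.17 (SE, n = 3 each, edgeR adjusted p = 0.430). Mterf1a, a transcription termination factor of mitochondria, had 1.69, 1.42 and 2.22 CPM in PB-MP and 0.837, 1.35 and 0.884 CPM in control. It did not overlap and was higher in PB-MP (0.79 ± 0.31, SE, adjusted p = 0.385). The other member at an unadjusted p below 0.05 was its close paralog Mterf1b, named after its values were seen, with 0.824, 0.674 and 1.01 CPM in PB-MP and 0.261, 0.413 and 0.314 CPM in control. Reads of these paralogs may have been split between them. Tefm, an elongation factor of the mitochondrial RNA polymerase, had 8.41, 7.71 and 10.4 CPM in PB-MP and 5.56, 5.61 and 8.16 CPM in control, with overlap (0.45 ± 0.24, SE, adjusted p = 0.485).

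Markers of other liver cell types were read beside these values. The 7 Kupffer cell and macrophage markers all had a log2 fold change above 0, with a median of 0.64. Of these, 3 had an unadjusted p below 0.05, against 7.35% of all tested rows in this direction. Their summed level ran from 129 to 278 RPM in PB-MP and from 84.2 to 119 RPM in control, without overlap. The summed hepatocyte level was also higher in every PB-MP library, whereas on the TMM scale the 9 hepatocyte markers had a median log2 fold change of 0.0039. The summed levels of markers of endothelium, stellate cells, cholangiocytes, lymphocytes, adipocytes and red cells overlapped between the diets. Of these, all 7 lymphocyte and 6 of 7 stellate markers had a log2 fold change below 0. At an unadjusted p below 0.05, 2 and 1 of them were lower, against 4.74% of all tested rows. Of the 5 red cell markers, 1 had a log2 fold change below 0, and 1 was higher at an unadjusted p below 0.05. Of the endothelial and cholangiocyte markers, 5 of 7 and 3 of 5 were below 0, with 0 at an unadjusted p below 0.05. No defining marker of the Kupffer, endothelial, stellate, cholangiocyte, lymphocyte or red cell lists was at 0 in all libraries, while Lep of the adipocyte list and Ucp1, Acta1 and Ckm of brown fat and muscle were. The part of cell makeup in the mitochondrial values was not tested.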

How the data were processed

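Liver RNA of 6 libraries was compared by diet, PB-MP with control, with groups and replicate numbers from the labels. The authors deposited read counts per gene symbol as whole numbers of differing totals, taken here as raw counts, in single files and in a joint table of the 6 samples. Library totals of 68357478 to 112566641 reads leave counting error small beside the spread between libraries, except in rows of few reads. Of tools and builds, bcl2fastq and GRCm39 appear in the submitters' processing notes. How reads were aligned, counted and assigned to strands or to 1 of several matches is not given in those notes or the labels, so the counts, and their split between genes and identical nuclear copies, may be rounded estimates of a counting program. The members and gene lists were chosen with earlier results of these data known.

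Rows past filterByExpr (10 reads as the minimum count, 15 as the minimum total) were scaled by TMM. The whole table was tested by edgeR 4.0.16 (R 4.3.3, quasi-likelihood) with Benjamini-Hochberg adjustment over all tested rows at 0.05. Each SE was taken from the log2 fold change and its F statistic. Ratios and within-mRNA shares were compared by exact permutation (scipy 1.17.1). Sums over members have no p. DESeq2 1.42.0, limma-voom (limma 3.58.1), other scalings and filters, a replicate block and each library left out were the alternatives. Shares were also computed with the nuclear copies added. Alternatives chosen after seeing the data were the refit with the reads of nuclear copies added to their members, the joining of overlapping mRNA pairs, and all alternatives for ratios, joined pairs and copies. The test was checked on simulated data.

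Gene order, strand, length, overlap and sequence came from GENCODE M21 on GRCm38, not the build named by the submitters, so no coordinates are given. Nuclear copies were found with blastn 2.17.0 between its transcripts (at least 90% identity over at least 200 bases), in place of the mitochondrial genome sequence. Genes named with all values were the rRNAs, the mRNAs of complexes III to V, the 3 complex I mRNAs of smallest p, the 1 of largest p and mt-Nd6, and the 4 tRNAs of smallest p and 3 with most reads. To these came Tfam, Polrmt, Lrpprc and the 2 list members of smallest p per direction with a mean of 1 CPM or more, and the 3 copies with most reads. Same-numbered libraries had correlations of -0.0869, 0.0935 and 0.0816 between their deviations from the group means, so the numbers were not taken as pairs.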

Additional observations from a re-analysis of the deposited data

How the results depend on the processing

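Direction was kept by all tested mRNAs and tRNAs under every alternative in which they were tested, and edgeR and limma-voom called 0 members under each. DESeq2 called 13 members and 6 nuclear copies. The replicate block called 0 members, with 23 at an unadjusted p below 0.05 against 22 without it, and it changed no other call. Over all tested rows, 1836 had an unadjusted p below 0.05 with the block, against 2161 without it. Scaling by library size only moved the median log2 fold change of all tested rows to 0.23. Against that, the nuclear copies had a median of -0.95 and the RNA synthesis list 0.25, while the mRNAs had -0.63 and the tRNAs -1.15, and 22 members did not overlap.

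With 1 library left out at a time, the median log2 fold change ran from -0.94 to -0.71 for mRNAs, from -1.59 to -1.17 for tRNAs and from -0.73 to 0.33 for rRNAs. The members at an unadjusted p below 0.05 ran from 19 to 24. Over all tested rows this count ran from 1472 of 18593 without control library 3 to 3338 of 18738 without control library 2. The members whose groups did not overlap ran from 25 to 27. Separation is reached more easily with 1 library fewer, and its share over all tested rows was not computed for these fits. The difference in share ran from -5.53 to -4.82 percentage points for mRNAs, from -0.141 to -0.0770 for tRNAs and from -0.328 to 0.272 for rRNAs, and 1 to 3 mRNAs had a within-mRNA share without overlap (2 without PB-MP library 3 or control library 3, 3 without control library 2). Without control library 2 and PB-MP library 3 together, the median was -0.54 for mRNAs and 0.67 for rRNAs, the rRNA share differed by 0.488 points, and 8 within-mRNA shares did not overlap. Leaving out the libraries that stood apart narrows the spread within each diet, so no difference is read from that last count.

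The rRNAs turned round. With 1 library left out, mt-Rnr1 ran from -0.76 to 0.020 and mt-Rnr2 from -0.73 to 0.64 on the log2 scale. mt-Rnr2 had a log2 fold change of 0.49 with limma-voom quality weights, 0.64 without control library 2, 0.034 without PB-MP library 3 and 1.01 without both. mt-Rnr1 had 0.020 without control library 2 and 0.33 without both. Adding the nuclear copies made the mRNA share differ by -6.66 points, against -5.18 without them, and left 0 within-mRNA shares without overlap. The cause of these changes was not tested.

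Depth limits mt-Tf, mt-Tv and mt-Td, which had as few as 3, 14 and 20 reads in a library, and the 5 tRNAs at 1 or 2 reads, which were not tested.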
